A study of Mus musculus with 8 samples.

Results

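The miR-29 family of the mouse has 3 guide strands, mmu-miR-29a-3p, mmu-miR-29b-3p and mmu-miR-29c-3p (written below without the species prefix), and these were followed in small RNA libraries of splenic CD8+ T cells of 2 ages. The members were chosen by name, as 3 of the 1978 mature microRNAs (miRNAs) in the deposited count table. Cells came from C57BL/6 mice, an inbred strain, either neonatal (5 to 7 days after birth, n = 4 libraries) or adult (12 weeks, n = 4). No allele or treatment is named in the labels for either group, and CD8+ cells had been enriched from spleen on magnetic beads against CD8a, which leaves some other cells. Nothing in the labels ties a library to its own mouse or to a pool of mice, so every p-value measures only the spread between these libraries, which may be technical.

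A miRNA hairpin is cut into a duplex, of which 1 strand, the guide, is kept in an Argonaute protein and represses messenger RNAs that match its seed, and the other, the passenger, is mostly degraded. miR-29 is known for targeting the DNA methyltransferases Dnmt3a and Dnmt3b, the survival factor Mcl1 and collagen messengers. In T cells it is known to restrain interferon-gamma and the transcription factors T-bet and Eomes, which drive effector function.

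The guide sequences are shown because the members differ at few bases, which decides how well their reads can be told apart. They are written 5′ to 3′, from RefSeq (GRCm38.p6), with the seed (bases 2 to 8) in capitals.
miR-29a-3p: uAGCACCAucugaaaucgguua
miR-29b-3p: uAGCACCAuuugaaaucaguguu
miR-29c-3p: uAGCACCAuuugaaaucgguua
All 3 share the seed AGCACCA. Among the 1679 miRNAs of the table with a RefSeq sequence no other had it, and the one other miRNA that shared bases 2 to 7, miR-3102-3p, had no count in any library. Counted from 1 at the 5′ end, miR-29a-3p and miR-29c-3p differ at 1 base (C10U). miR-29c-3p and miR-29b-3p are identical over the first 17 bases and then differ by G18A, U21G and A22U, and miR-29b-3p is 1 base longer.

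The family comes from 2 pairs of hairpins. Mir29a (chromosome 6, 31062660 to 31062747) and Mir29b-1 (31063023 to 31063093) lie 275 bases apart on the minus strand. Apart from the miRNA genes themselves, no gene annotated in GENCODE covers either of them. The noncoding Gm27019 overlaps Mir29b-1 by 2 bases on the same strand. Mir29b-2 (chromosome 1, 195037040 to 195037120) and Mir29c (195037547 to 195037634) lie 426 bases apart on the plus strand, within an exon of the noncoding host gene A330023F24Rik. On the opposite strand the same bases fall in an annotated exon of the protein-coding gene Cd46. The Mir29a and Mir29b-1 hairpins are shown whole, with the guide in capitals, since both arms of each are described below.
Mir29a: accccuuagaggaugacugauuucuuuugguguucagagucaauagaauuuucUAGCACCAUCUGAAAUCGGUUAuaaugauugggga
Mir29b-1: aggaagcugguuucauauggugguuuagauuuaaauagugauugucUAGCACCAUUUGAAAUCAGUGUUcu

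The guide of miR-29b is the same in both of its hairpins, so only the passenger arms tell the 2 loci apart. Passengers are written with bases 2 to 8 in capitals.
miR-29a-5p: aCUGAUUUcuuuugguguucag
miR-29b-1-5p: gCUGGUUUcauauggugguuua
miR-29b-2-5p: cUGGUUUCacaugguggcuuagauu
miR-29c-5p: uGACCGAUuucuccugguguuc
The 2 miR-29b passengers matched at 19 of 21 aligned bases.

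Libraries held 1281032 to 2606630 counts, which makes 1 count worth 0.384 to 0.781 counts-per-million (CPM). A count of 0 allows up to 3 counts, or 1.15 to 2.34 CPM, and this limit and the Poisson intervals below cover counting error only. Intervals of log2 fold changes are edgeR's and also take in the spread between libraries. Levels are given in CPM after TMM scaling (a trimmed mean of ratios brings the libraries to one scale). Kits that ligate adapters favour some sequences, so a level should be read against the same miRNA in other libraries and not against another miRNA. In bulk RNA, fewer cells of a type and less of a miRNA per cell cannot be told apart. miRNAs cannot show CD8 itself. Of 6 lymphoid miRNAs all were measured in every library, at a summed 73321 to 76096 CPM in neonatal and 144662 to 211582 CPM in adult libraries. Most of this sum was miR-150-5p (81.2% in adult and 73.1% in neonatal libraries), and the others did not all move alike: miR-181a-5p stood at a log2 fold change, neonatal over adult, of 0.21 (0.84 with library totals) and miR-342-3p at -0.72 (-0.09 with totals).

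All 3 guides were lower in neonatal than in adult CD8+ T cells. The fall was about 10-fold or more with TMM scaling and smaller with library totals (log2 fold changes of -2.81 to -3.28). By edgeR's quasi-likelihood test the log2 fold change, neonatal over adult, was -3.42 ± 0.26 (SE) for miR-29a-3p, -3.64 ± 0.25 for miR-29b-3p and -3.90 ± 0.32 for miR-29c-3p. Of the 375 miRNAs tested 63.2% passed at a Benjamini-Hochberg adjusted p under 0.05, 34.1% as lower and 29.1% as higher in neonatal libraries, and all 3 members were among the lower ones. miR-29c-3p entered the test through its adult libraries alone, so it had to differ, and its call adds nothing to the count. With TMM scaling 5 of the 375 (1.33%) passed with a fall of at least 8-fold, and these were the 3 guides, miR-101a-3p and miR-125a-5p.

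miR-29a-3p, the member with most counts, stood at 7952, 10571, 9230.4 and 10071 CPM in adult libraries 1 to 4. In neonatal libraries 1 to 4 it stood at 634, 899.5, 604 and 1399 CPM. The groups did not overlap, and the lowest adult library was 5.69-fold above the highest neonatal one. Means were 9456 ± 1145 CPM (SD, n = 4) in adult and 884 ± 368 CPM (n = 4) in neonatal libraries, a 10.7-fold difference (95% interval of the log2 fold change -3.99 to -2.85, edgeR's adjusted p = 4.40e-07). By count it ranked 22 to 24 among all miRNAs in adult libraries and 63 to 87 in neonatal libraries.

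miR-29b-3p, encoded at both loci, stood at 176, 218, 189 and 198 CPM in adult libraries 1 to 4. Neonatal libraries 1 to 4 had 18.7, 14.5, 8.71 and 20.4 CPM. No neonatal library came within 8.62-fold of the lowest adult library. The means were 195 ± 17.9 CPM in adult and 15.6 ± 5.20 CPM in neonatal libraries (SD, n = 4 each), a 12.5-fold difference (95% interval -4.17 to -3.11 on the log2 scale, edgeR's adjusted p = 1.11e-07). Among the 168 miRNAs whose mean reached 100 CPM at one age or both it had the lowest fold change, and miR-29a-3p the third lowest.

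miR-29c-3p, encoded with the second copy of miR-29b, was rare at both ages. Adult libraries 1 to 4 held 31, 54, 52 and 70 counts (30.1, 37.8, 24.7 and 35.1 CPM), and neonatal libraries 1 to 4 held 4, 8, 2 and 6 counts (2.13, 3.05, 0.871 and 2.15 CPM). Again the groups did not overlap. Groups lay apart in this direction for 30.9% of the 375 miRNAs, and for 26.4% in the opposite one. The log2 fold change had a 95% interval of -4.60 to -3.20 (edgeR's adjusted p = 6.98e-07) and was the lowest of all 375, but 1 of the neonatal counts was below the 3 counts that a 0 allows and the others were not far above it, so its size is imprecise.

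**Figure D1:**
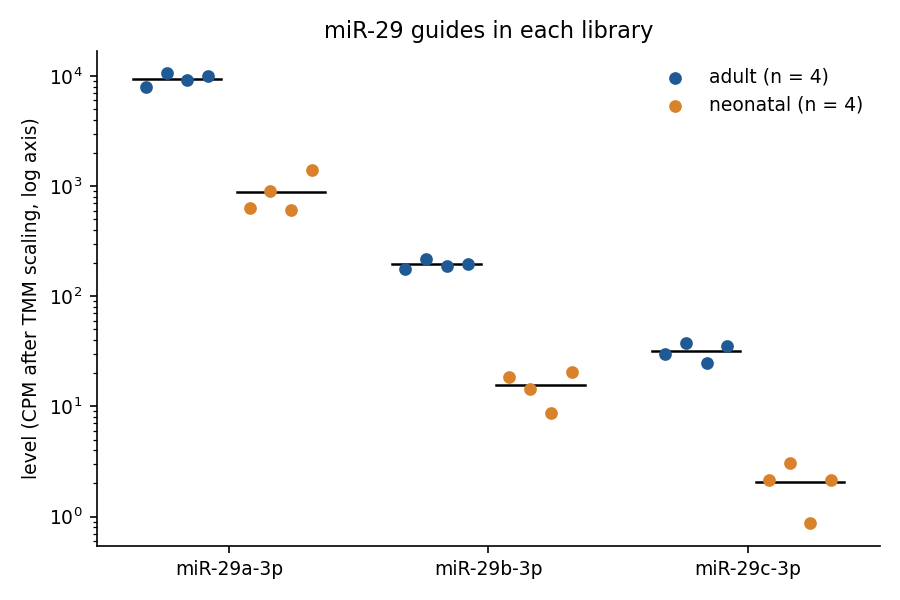
Level of each miR-29 guide in each library (points, CPM after TMM scaling on a log axis), adult in blue and neonatal in orange, 4 libraries per group, with the group mean as a bar. Adult and neonatal libraries do not overlap for any of the 3 guides, and for miR-29a-3p the lowest adult library (7952 CPM) lies 5.69-fold above the highest neonatal one (1399 CPM).

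The size of these fold changes moves with the scaling. In adult libraries the TMM factor was 0.788 to 0.812, and in neonatal libraries 1.158 to 1.299. Scaling by library totals moved log2 fold changes up by 0.626 on average and RLE scaling by 0.120. With totals 68 miRNAs passed as lower and 186 as higher, in place of 128 and 109, and 18.1% of all tested passed as lower. Only miR-29b-3p and miR-29c-3p then passed with a fall of at least 8-fold, and miR-29a-3p and miR-101a-3p (-2.91) did not reach it. The 3 guides were still among these 68, with log2 fold changes of -2.81 for miR-29a-3p, -3.02 for miR-29b-3p and -3.28 for miR-29c-3p.

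The family was also measured as a share of all counts in a library, which is scaling by library totals and so moves with the most abundant miRNAs. The 3 guides together took 0.656%, 0.853%, 0.762% and 0.837% of counts in adult libraries 1 to 4, and 0.0844%, 0.114%, 0.0797% and 0.164% in neonatal libraries 1 to 4. The means were 0.777% ± 0.0899 and 0.111% ± 0.0390 (SD, n = 4 each), and the groups did not overlap. The difference of -0.666 percentage points had p = 0.0286 by two-sided exact permutation, which is as low as 4 against 4 libraries can go. When libraries were paired by their number and signs flipped, the exact p was 0.125, as low as 4 pairs can go. As a share of the counts left without the 10 most abundant other miRNAs, the difference was -1.91 percentage points (exact permutation p = 0.0286).

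**Figure D2:**
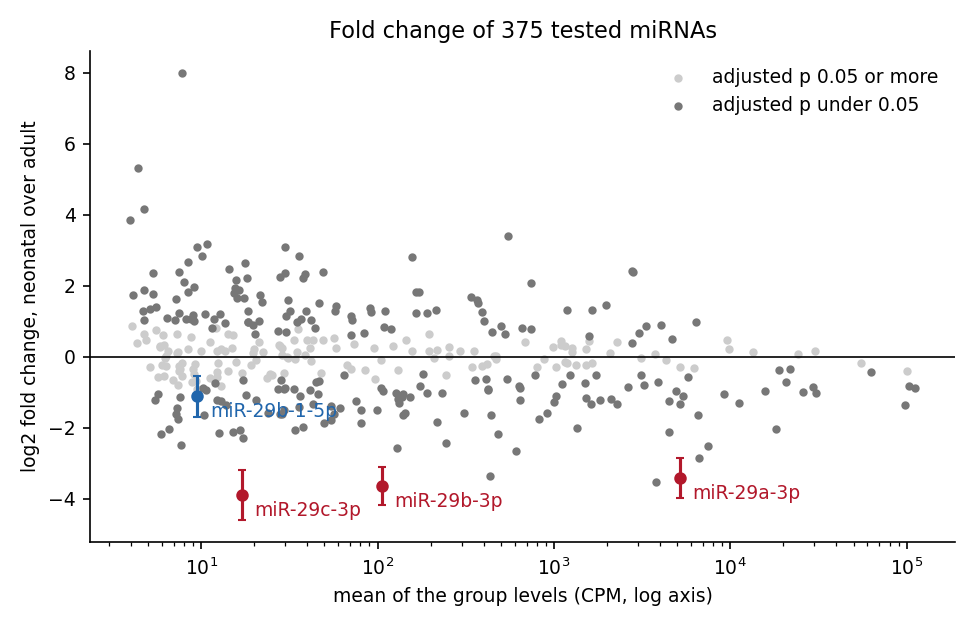
Log2 fold change (neonatal over adult) of the 375 tested miRNAs against the mean of the 2 group levels (CPM, log axis), with dark points for an adjusted p under 0.05 by edgeR. The 3 guides (red, with 95% intervals) lie between -3.42 and -3.90 at the lower edge, and the passenger miR-29b-1-5p (blue) lies at -1.12.

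Most of the family's counts were miR-29a-3p at both ages. It took 97.6% ± 0.124 of the guides' counts in adult and 97.9% ± 0.762 in neonatal libraries, and miR-29b-3p 2.02% ± 0.0964 and 1.82% ± 0.690 (SD, n = 4 each). The rest, 0.330% ± 0.0471 and 0.238% ± 0.106, was miR-29c-3p. Whether the members fell unequally was tested on their log2 ratios, with 3 ratios adjusted together. By exact two-sided permutation the ratio of miR-29b-3p to miR-29a-3p moved by -0.20 (p = 0.543, adjusted 0.543), that of miR-29c-3p to miR-29a-3p by -0.42 (p = 0.314, adjusted 0.543) and that of miR-29c-3p to miR-29b-3p by -0.22 (p = 0.4, adjusted 0.543). None of the 3 passed, and for each the groups overlapped. Paired by library number, the ratio of miR-29c-3p to miR-29a-3p was lower in the neonatal library in 4 of 4 pairs (exact sign-flip p = 0.125, as low as 4 pairs can go).

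The first of these ratios turned on 1 library. Per 1000 counts of miR-29a-3p there were 22.1, 20.7, 20.4 and 19.7 counts of miR-29b-3p in adult libraries 1 to 4. Neonatal libraries 2 to 4 had 16.1, 14.4 and 14.6, below every adult library, while neonatal library 1 had 29.4, above every adult library. Without neonatal library 1 the log2 ratio differed by -0.44 (exact permutation p = 0.0286, not adjusted), and leaving out any other library gave no call.

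Neonatal libraries had the larger relative spread, though this difference was not tested. The coefficient of variation was 41.6% in neonatal and 12.1% in adult libraries for miR-29a-3p, 33.4% and 9.19% for miR-29b-3p, and 43.7% and 18.1% for miR-29c-3p. Neonatal libraries 2 and 4 were the highest for miR-29a-3p and neonatal library 3 the lowest for all 3 guides. Adult libraries 2 and 4 were also the highest of their group, for all 3 guides. Neonatal mice spanned 5 to 7 days and the labels give no age for a single library. A relation of the differences between neonatal libraries to age was not tested.

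Near-identical members share reads. The deposited values of miR-29a-3p were not whole in any of the 8 libraries, but the sum of the 3 guides was whole within 0.02 in all 8. The 2 rows of miR-29b-3p differed by at most 1 count, so its reads do not show which locus made them. There were 3.30 counts of miR-29c-3p per 1000 of miR-29a-3p over the adult libraries and 2.26 over the neonatal ones. Whether reads of miR-29a-3p with an error at base 10 add to miR-29c-3p was not tested.

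Of the 4 passenger arms only miR-29b-1-5p, from the chromosome 6 locus, had enough counts to pass the filter, and it fell by less than any guide.  It stood at 11.7, 13.999, 14.3 and 12.04 CPM in adult libraries 1 to 4 and at 7.47, 4.96, 5.66 and 6.08 CPM in neonatal libraries 1 to 4. The groups did not overlap, with means of 12.99 ± 1.33 and 6.04 ± 1.06 CPM (SD, n = 4 each). The log2 fold change was -1.12 ± 0.27 (SE), a 2.17-fold difference (edgeR's adjusted p = 0.00248), and with library totals it went to -0.49 and did not pass (adjusted p = 0.115).

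The other passengers had few counts. miR-29a-5p had 2, 15, 13 and 15 counts in adult libraries 1 to 4 and 2, 0, 0 and 7 in neonatal libraries 1 to 4. A count of 0 allows up to 1.42 CPM in neonatal library 2 and 1.70 CPM in neonatal library 3, before TMM scaling. Summed over libraries this was 5.52 CPM of the total counts (95% Poisson interval 4.02 to 7.38) in adult and 1.16 CPM (0.531 to 2.20) in neonatal libraries, though adult library 1 was within the neonatal range. It did not pass the count filter. With no filter its log2 fold change stood at -2.72 (edgeR's adjusted p = 0.0001003). That fit gave the guides far lower adjusted p-values (7.11e-69 for miR-29a-3p, against 4.40e-07 with the filter). Its p-values are thus not comparable with those of the main fit, and this call is not counted as support.

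For the passengers from chromosome 1 no difference was detectable at this depth. miR-29b-2-5p had 3, 0, 6 and 2 counts in adult libraries 1 to 4 and 2, 6, 3 and 7 in neonatal libraries 1 to 4, or 1.35 (0.673 to 2.41) and 2.32 (1.38 to 3.67) CPM of the total counts. miR-29c-5p had 2, 3, 7 and 12 counts in adult and 5, 3, 5 and 4 in neonatal libraries, or 2.94 (1.89 to 4.38) and 2.19 (1.28 to 3.51) CPM. Groups overlapped for both. With no filter edgeR's adjusted p was 0.847 for miR-29b-2-5p and 0.357 for miR-29c-5p, and these too are not comparable with the main fit.

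**Figure D3:**
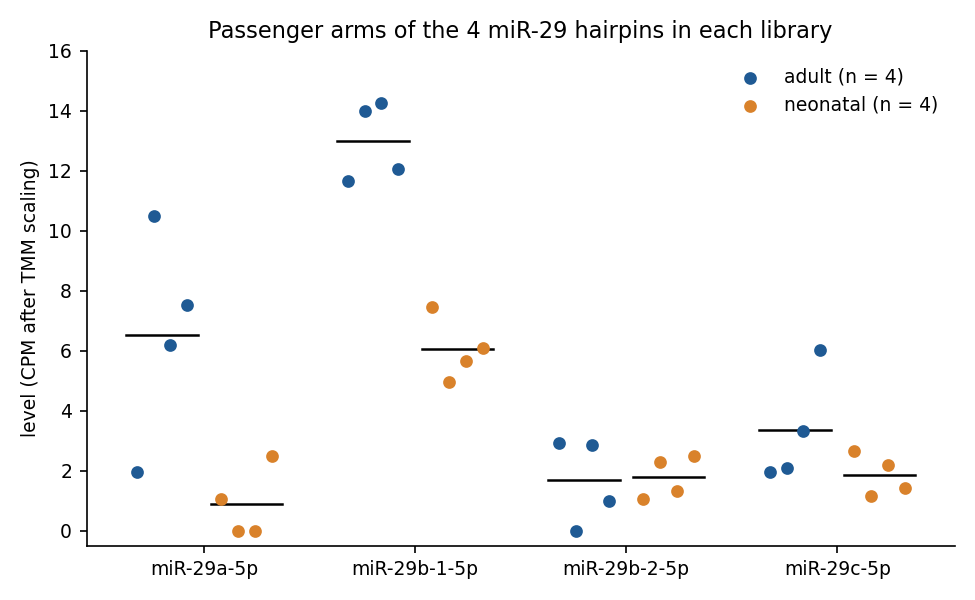
Level of each miR-29 passenger arm in each library (points, CPM after TMM scaling), adult in blue and neonatal in orange, 4 libraries per group, with the group mean as a bar. Groups are apart for miR-29b-1-5p (means of 12.99 and 6.04 CPM) and overlap for the other three.

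The balance of the 2 arms, which needs no scaling between libraries, lay apart by age for miR-29b. With the passengers of both loci summed, there were 12.1, 15.6, 11.03 and 15.2 counts of the guide per count of passenger in adult libraries 1 to 4, and 2.19, 2.00, 1.25 and 2.38 in neonatal libraries 1 to 4. No neonatal library came near the adult range. Passengers made up 7.04% ± 1.12 of miR-29b counts in adult and 34.7% ± 6.67 in neonatal libraries (SD, n = 4 each). The log2 ratio of guide to passenger fell by 2.80 (p = 0.0286 by two-sided exact permutation, as low as the design allows). Adjusted over the 2 arm ratios tested, the exact p was 0.0571 and did not pass, and flipping signs within pairs gave an exact p of 0.125.

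For miR-29a the ratio rested on few passenger counts and did not pass. Passengers made up 0.0663% ± 0.0311 of miR-29a counts in adult and 0.0866% ± 0.1001 in neonatal libraries (SD, n = 4 each). The log2 ratio moved by -0.22 (exact permutation p = 0.886, adjusted 0.886). Leaving out single libraries moved it between -0.82 and 0.28, and a pseudocount of 1 in place of 0.5 moved it to -0.70, so a difference of that size could not be detected.

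In miR-29c, guide and passenger counts were close to each other in neonatal libraries. There were 0.8, 2.67, 0.4 and 1.5 counts of guide per count of passenger in neonatal libraries 1 to 4, against 15.5, 18.0, 7.43 and 5.83 in adult libraries 1 to 4. The groups did not overlap. This ratio was taken up after its counts had been seen, so it has no test, and each neonatal value rests on at most 8 counts of either arm.

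Among hairpins in general the ratio of guide to passenger was also lower in many neonatal libraries. In the 102 hairpins with both arms past the count filter the median change of the log2 ratio was -0.32, and in 26.5% the neonatal libraries all lay below the adult ones (39.2% lay apart in either direction). Mir29b-1, taken as miR-29b-3p over miR-29b-1-5p, had the lowest value of the 102, at -2.60, with the guide's reads coming from both loci. Next was mir-151 at -2.12, and the highest was 2.26.

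**Figure D4:**
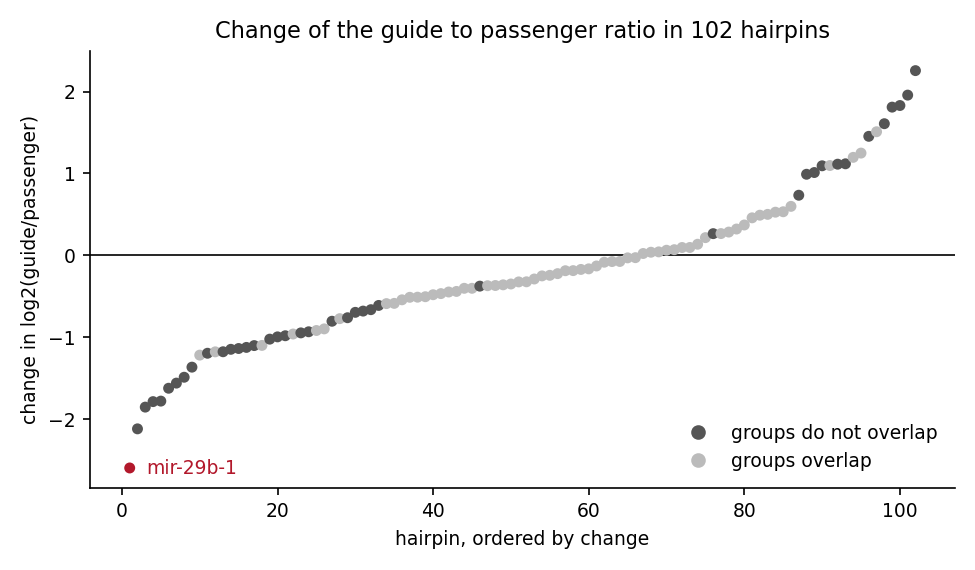
Change of the log2 ratio of guide to passenger (neonatal mean minus adult mean) in 102 hairpins, ordered from lowest to highest, with dark points where neonatal and adult libraries do not overlap. Mir29b-1 (red) is first, at -2.60, and the median hairpin is at -0.32.

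The miRNAs whose profile over the 8 libraries was most like that of the summed guides were miR-101a-3p, miR-125a-5p, miR-146a-5p, miR-1843a-5p and miR-504-5p. Likeness was the root mean square difference of log2 level, each profile taken relative to its own mean, among 157 other miRNAs with at least 100 CPM on average. It was 0.195 for miR-101a-3p, 0.351 for miR-125a-5p, 0.403 for miR-146a-5p, 0.439 for miR-1843a-5p and 0.589 for miR-504-5p, with a median of 1.64 over all 157. By the same measure miR-29b-3p lay 0.312 and miR-29c-3p 0.457 from the sum, which is nearly all miR-29a-3p. So miR-101a-3p was closer to the sum than these members. In single libraries miR-29b-3p went down to 20 counts and miR-29c-3p to 2, against 711 for miR-101a-3p. Counting error thus weighs more in the members' distances, by an amount that was not tested.

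miR-101a-3p, known for targeting the histone methyltransferase Ezh2, had 4865, 7339, 6658 and 8984 CPM in adult libraries 1 to 4 and 379, 575, 503 and 971 CPM in neonatal libraries 1 to 4. Neonatal libraries 2 and 4 were the highest of their group for it as for miR-29a-3p. All of these miRNAs were picked for a profile like that of the guides, so a fall was fixed by the choice. The others had log2 fold changes of -3.36 ± 0.19 (SE) for miR-125a-5p, -2.86 ± 0.15 for miR-146a-5p, -2.65 ± 0.23 for miR-1843a-5p and -2.57 ± 0.18 for miR-504-5p.

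**Figure D5:**
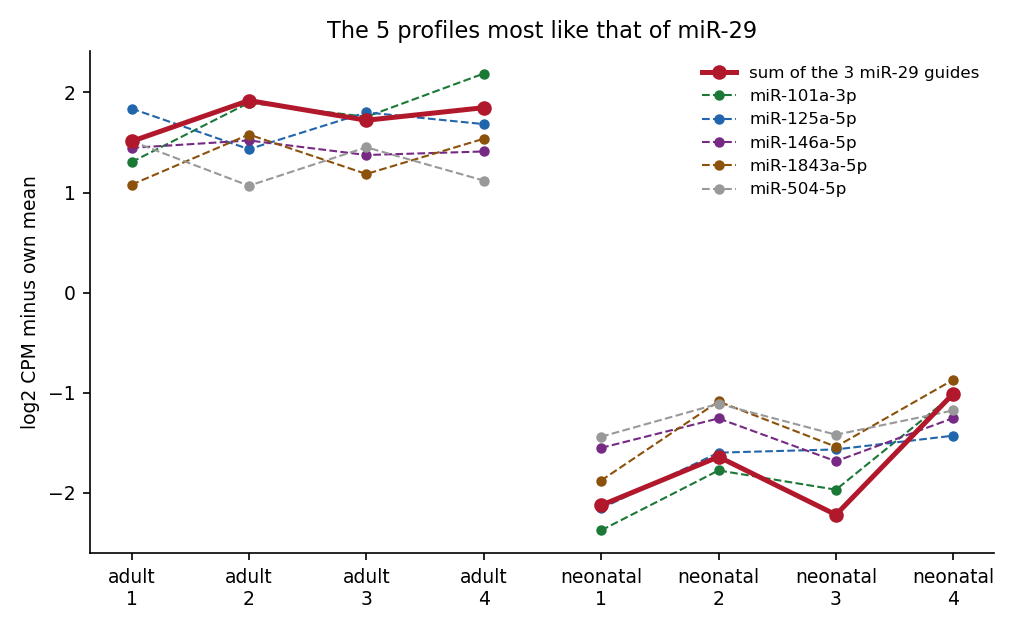
Log2 CPM relative to the profile's own mean in each library for the summed miR-29 guides (thick red line) and the 5 most alike miRNAs (dashed lines), with lines broken between adult and neonatal libraries. miR-101a-3p follows the guides most closely, with a root mean square difference of 0.195.

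Other miRNAs known to target DNA or histone methyltransferases did not all move with miR-29. Of 8 on this list, 4 fell and 3 rose, with a median log2 fold change of -0.29 against -0.05 over all 375 (with library totals 3 were lower and 4 higher). Over all 375 miRNAs 34.1% were lower and 29.1% higher, so these counts stand near the background. miR-101a-3p, miR-101b-3p (-0.97 ± 0.24), miR-26a-5p (-1.02 ± 0.14) and miR-26b-5p (-1.30 ± 0.16), known for targeting Ezh2, fell. miR-148a-3p (2.42 ± 0.17) and miR-148b-3p (0.39 ± 0.14), known for targeting Dnmt1, rose, as did miR-143-3p (1.07 ± 0.35). miR-152-3p, of the miR-148 family, stood at 0.82 ± 0.42 and did not pass (edgeR's adjusted p = 0.110). In edgeR's fit blocked by library number it passed, at 0.90 (adjusted p = 0.0179). miR-152-3p (means of 8.76 CPM in adult and 15.4 CPM in neonatal libraries) entered the test mainly through the neonatal libraries, where it is higher. Its calls add nothing to these counts.

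Of 10 miRNAs linked to effector functions of T cells, 7 fell and 2 rose, with a median of -1.22, beside 34.1% lower and 29.1% higher over all 375. With library totals 5 were lower and 3 higher, beside 18.1% lower over all. The 2 that rose were miR-31-5p (1.87 ± 0.26) and miR-125b-5p (1.37 ± 0.28). miR-31-5p (means of 7.04 CPM in adult and 25.7 CPM in neonatal libraries) entered the test mainly through the neonatal libraries, where it is high. Its calls add nothing to these counts. miR-24-3p and miR-27a-3p, known to restrain T helper cell cytokines, stood at -0.57 ± 0.16 and -1.11 ± 0.22 and both fell, although miR-24-3p turned to 0.05 with library totals and did not pass. miR-146a-5p, which restrains NF-kB, and miR-155-5p (-1.75 ± 0.15), which CD8+ T cells need to become effectors, fell as well.

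Some marker lists of other cells also differed by age. Of the members tested, 3 of 3 erythroid, 2 of 2 endothelial and 3 of 3 stromal miRNAs passed as higher in neonatal libraries. Over all 375 miRNAs 29.1% did, and of liver and muscle 1 of 3 (miR-122-5p, of liver). The erythroid miR-486a-5p and miR-486b-5p had nearly equal means (72.6 and 76.0 CPM in adult, 257 and 267 CPM in neonatal libraries). Both had a lowest count of 70, so they may not be 2 separate measurements. Untested stromal members had few counts. Their adult and neonatal means were 3.00 and 1.19 CPM for miR-199a-5p, 3.78 and 2.45 for miR-199b-5p, 0.669 and 0.414 for miR-145a-5p, and 2.62 and 2.71 for miR-214-3p. Of 6 epithelial miRNAs 3 passed as lower, but with library totals 2 were lower and 3 higher, and no myeloid miRNA had enough counts to test. The epithelial miR-141-3p (means of 10.7 CPM in adult and 2.49 CPM in neonatal libraries) entered the test mainly through the adult libraries, where it is high. Likewise the endothelial miR-126a-5p (2.33 and 8.33 CPM) entered through the neonatal ones. The calls of miR-141-3p and miR-126a-5p add nothing to these counts. Summed levels were 120 to 252 CPM in adult and 308 to 775 CPM in neonatal libraries for 5 erythroid miRNAs, 46.6 to 77.0 and 125 to 160.2 CPM for 2 endothelial ones, and 38.5 to 87.3 and 117 to 174 CPM for 7 stromal ones. The 4 liver and muscle miRNAs summed to 249 to 408 and 757 to 1597 CPM, the 7 epithelial ones to 3896 to 4521 and 2718 to 3449 CPM, and the 2 myeloid ones to 2.85 to 9.10 and 3.49 to 8.54 CPM. No listed marker was at 0 in all libraries, and miR-206-3p, of muscle, was at 0 in the 4 adult ones. Their part in the miR-29 result was not tested, and without these miRNAs in the fit the guides' log2 fold changes were -3.35 (miR-29a-3p), -3.56 (miR-29b-3p) and -3.83 (miR-29c-3p).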

How the data were processed

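The values the authors deposited are estimated counts, without normalization, in 1 table with a row for each pair of miRNA and precursor. The genome build was mm10, per the submitters' processing notes. Aligner, counter and miRNA release were not given in the sources used here. Per the labels' protocols, RNA came from Trizol extraction and libraries from the NEBNext small RNA kit. Rows were summed per mature miRNA and rounded to whole numbers. The filter was edgeR's filterByExpr (minimum count 10, total 15), which kept 375 of 1978 miRNAs. The test was edgeR 4.0.16 (R 4.3.3) by quasi-likelihood with TMM scaling, robust dispersion and age as the only term, adjusted by Benjamini-Hochberg over the 375 at 0.05. Each SE is the size of the log2 fold change over the square root of its F statistic. Ratios used a pseudocount of 0.5 and exact permutation of libraries. DESeq2 1.42.0 and limma 3.58.1 (voom) were alternatives, and the fit was tested on simulated data.

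No library was a copy of another: pairs of a group gave 15.7 to 361.6 for chi-square over its degrees of freedom. Replicate numbers 1 to 4 occur in both groups. Deviations from group means correlated at r = 0.256 to 0.415 between same-numbered libraries, and 4 of 4 pairs exceeded 0.1. On this basis only, not from any label, a number was taken to pair its libraries. The correlations do not single out these pairs. Across the groups, libraries 1 with 3 and 2 with 4 also correlated positively, at 0.107 to 0.482. Odd with even numbers always correlated negatively, at -0.533 to -0.110. A split of odd from even numbers thus describes these values as well, and the labels do not say what it stands for.

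The miRNAs described by name were the 3 guides, their 4 passengers, the 5 most alike miRNAs of at least 100 CPM and members of the lists. The members and lists were chosen with earlier results of these data known. Hairpin positions and sequences are those of RefSeq (GRCm38.p6, the assembly of mm10), and overlapping genes those of GENCODE M21.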

Additional observations from a re-analysis of the deposited data

Results flagged for a closer look

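Of 26 sets of 4 libraries checked (the level of each guide and passenger, the ratios and the family's share, in each age group), 2 had 1 library far from the other three, and chance alone gives about 1 in 20. The log2 ratio of miR-29b-3p to miR-29a-3p was -5.07 in neonatal library 1, against -5.94 to -6.09 in neonatal libraries 2 to 4. The log2 ratio of miR-29c-3p to miR-29b-3p was -2.92 in adult library 3, against -2.53 to -2.49 in the other adult libraries.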

How the results depend on the processing

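Each guide stayed past the threshold and lower in neonatal libraries in all 20 alternatives (other scalings, tests, filters, a GC offset, the block, leaving out groups of miRNAs or 1 library). For miR-29c-3p, which enters the filtered fits through its adult libraries alone, these calls add nothing. Log2 fold changes outside the runs without 1 library ranged from -3.50 to -2.81 for miR-29a-3p, -3.70 to -3.02 for miR-29b-3p and -3.94 to -3.28 for miR-29c-3p, the weakest always with library totals. With the replicate number as a block they were -3.50, -3.67 and -3.94, and with an offset for GC content (known for 314 of the 375) -3.19, -3.21 and -3.51. Library totals gave 186 higher and 68 lower miRNAs in all, and took miR-29b-1-5p to -0.49, past the threshold no longer. The number of passengers called was 1, but 0 with library totals or at least 10 CPM in 4 libraries, 2 with no filter, and 1 to 2 without 1 library. Where it was 2, miR-29a-5p had been tested as well. In the runs without 1 library it entered through the adult libraries, where it is high, and these calls support nothing. The p-values of the fit with no filter are not comparable with the main ones, so that call is not counted as support either. In the exact sign-flip test within pairs the miR-29b arm ratio (-2.80) and the family's share (-0.67 percentage points) had p = 0.125. As 4 pairs cannot give less, neither could pass there. By exact permutation the arm ratio had not passed either once adjusted (adjusted p = 0.0571). The block took the total called from 237 to 265. Among 44 listed, alike and family miRNAs tested it changed 1 call, that of miR-152-3p. This miRNA entered the test mainly through the neonatal libraries, where it is higher, so its call adds nothing. As a share of counts without the 10 most abundant miRNAs the family differed by -1.91 percentage points. The log2 ratio of miR-29b-3p to miR-29a-3p ranged from -0.44 to -0.10 without 1 library and passed only without neonatal library 1. Depth limits miR-29c-3p, at 2 to 8 counts in neonatal libraries, and 3 of the 4 passengers, at 0 to 15 counts.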
